A study of Mus musculus with 6 samples.

Results

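Nanog, Esrrb, Tfcp2l1, Tbx3, Nr5a2, Nr0b1, Zfp42 and Prdm14 encode 8 transcription regulators of the naive pluripotency network that lie outside the KLF family. They were taken by symbol from the table of deposited counts, and all 8 were found among its 19532 gene rows. The counts are of single mouse embryonic stem cells of the established lines R1 and IB10, sorted into plates and profiled with SORT-seq, in which the 3′ end of each captured transcript carries a unique molecular identifier (UMI) and is counted by it. Each line gave 1 library of 188 wells in each of 3 culture conditions, so every condition has 2 libraries.

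All cells were grown without serum in N2B27 medium with LIF, on plates coated with gelatin and fetal calf serum. LIF_2i cells also received 3 µM CHIR99021, which inhibits GSK3 and so activates WNT signalling, and 0.1 µM PD325901, which inhibits MEK. Rosette_LIM cells had PD325901 at the same 0.1 µM and, in place of the GSK3 inhibitor, 2 µM IWP2, which blocks WNT secretion; R1 had spent 6 passages and IB10 5 passages in it. Primed_4d cells had IWP2 at 2 µM with Activin A at 20 ng/ml and FGF2 at 12 ng/ml, for 4 days. R1 was at passage 24 and IB10 at passage 28 when taken from LIF_2i or primed_4d, and at 28 and 33 when taken from rosette_LIM, so in rosette_LIM the condition and the higher passage cannot be told apart. The labels name no separate cultures within a line, and p-values measure only the spread between these libraries. With condition and cell line in the main fit, 2 residual degrees of freedom were left. The spread is therefore how far the responses of R1 and IB10 differ. The main test also shares information on spread across genes, so a small p-value does not rest on the replicates of that gene alone.

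The library totals lay between 4675388 and 7806882 UMIs. The median well held between 26868 and 40975.5 UMIs in 5 libraries and 11250 in R1 primed_4d, where 84 of the 188 wells had fewer than 6000. The 6 general markers of pluripotent cells (Pou5f1, Sox2, Sall4, Utf1, Tdgf1 and Lin28a) were all present in every library and summed to between 2056 and 3135 CPM, the UMI counts scaled by library size. The 7 fibroblast feeder genes summed to between 3.31 and 13.2 CPM, with Col3a1 and Lum at 0 in all libraries, and the 8 primitive endoderm genes to between 10.6 and 33.7 CPM. The 8 trophectoderm genes summed to between 22.6 and 43.4 CPM, and the 6 genes of the 2-cell-like state that were found to between 1.04 and 20.9 CPM.

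In the embryo the naive state is that of the epiblast before implantation, and in culture it is held by LIF, which activates STAT3, together with inhibition of GSK3 and MEK. STAT3 and relief from the repressor TCF7L1 feed into a small set of regulators that bind one another's enhancers and act beside OCT4 (Pou5f1) and SOX2. When cells leave this state under FGF and Activin, most of these regulators go down, to differing degrees, while the general pluripotency factors remain. Nanog is a homeobox factor of the core network. Esrrb and Nr5a2 are orphan nuclear receptors that bind closely related DNA sites, and Nr0b1 (DAX1) is a nuclear receptor without a DNA-binding domain that works as a corepressor. Tfcp2l1, of the grainyhead family, is a target of both STAT3 and TCF7L1. Tbx3 is a T-box factor. Prdm14 represses FGF receptor signalling and DNA methyltransferases, and Zfp42 (REX1) is a zinc finger protein whose gene is widely used as a reporter of the naive state.

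On GRCm38 the genes lie apart, with Tfcp2l1, Nr5a2 and Prdm14 on chromosome 1, Tbx3 on 5, Nanog on 6, Zfp42 on 8, Esrrb on 12 and Nr0b1 on X. Nanog spans chr6:122707489-122714633 on the forward strand and Zfp42 chr8:43295063-43306980 on the reverse strand. The start of Tbx3 (chr5:119670669-119684724) is overlapped by Tbx3os1 on the opposite strand, and Tfcp2l1 (chr1:118627945-118685168) by 3 annotated genes, 2 of them on the opposite strand. The sources used here do not say whether the counting used strand, so the counts of Tbx3 and Tfcp2l1 may hold reads of these neighbours. Processed pseudogenes are annotated for Nanog (2) and Zfp42 (1), and the treatment of reads shared with them is likewise not stated.

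The 250 bases before the transcription start were searched on both strands for 6 short sequences that regulators of this network bind. RefSeq promoters on GRCm38.p6 matched 6 of the 8 genes, with 9 starts in all, and Tbx3 and Prdm14 had no entry. Nanog and Zfp42 are shown because they are the 2 genes in which a match was found. The sequences read 5′ to 3′ on the gene's strand, and capitals mark the matches. Nanog's lies at chr6:122707239-122707488 on the forward strand and that of Zfp42 at chr8:43307010-43307259 on the reverse strand.

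Nanog: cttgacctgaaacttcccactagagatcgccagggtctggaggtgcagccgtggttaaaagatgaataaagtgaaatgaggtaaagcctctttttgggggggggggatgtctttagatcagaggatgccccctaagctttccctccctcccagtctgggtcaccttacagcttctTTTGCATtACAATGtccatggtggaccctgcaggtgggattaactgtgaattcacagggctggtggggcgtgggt
Zfp42: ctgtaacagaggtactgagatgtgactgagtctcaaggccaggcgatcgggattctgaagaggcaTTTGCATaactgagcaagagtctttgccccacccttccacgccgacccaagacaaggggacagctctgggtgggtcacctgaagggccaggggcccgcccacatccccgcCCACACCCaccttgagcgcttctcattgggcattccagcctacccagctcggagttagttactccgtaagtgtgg

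In Nanog the octamer ATGCAAA, bound by OCT4, was found on the reverse strand 75 to 69 bases before the start. The SOX sequence CATTGT lay 67 to 62 bases before the start, also on the reverse strand, and did not overlap the octamer. This pair is the arrangement of the composite OCT4 and SOX2 element known from the Nanog promoter. In Zfp42 the octamer lay 185 to 179 bases and the KLF sequence GGGTGTGG 75 to 68 bases before the start, both on the reverse strand. The ERR and NR5A sequence AAGGTCA, the STAT sequence TTCCNGGAA and the TCF/LEF sequence ATCAAAG were in none of the 9 windows. Of 32851 promoter windows of the same length, 4.12% held the octamer, 10.7% the SOX sequence, 3.20% the KLF sequence, 4.08% the ERR and NR5A sequence, 0.913% the STAT sequence and 3.21% the TCF/LEF sequence. A match is a description of the letters only.

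**Figure D1:**
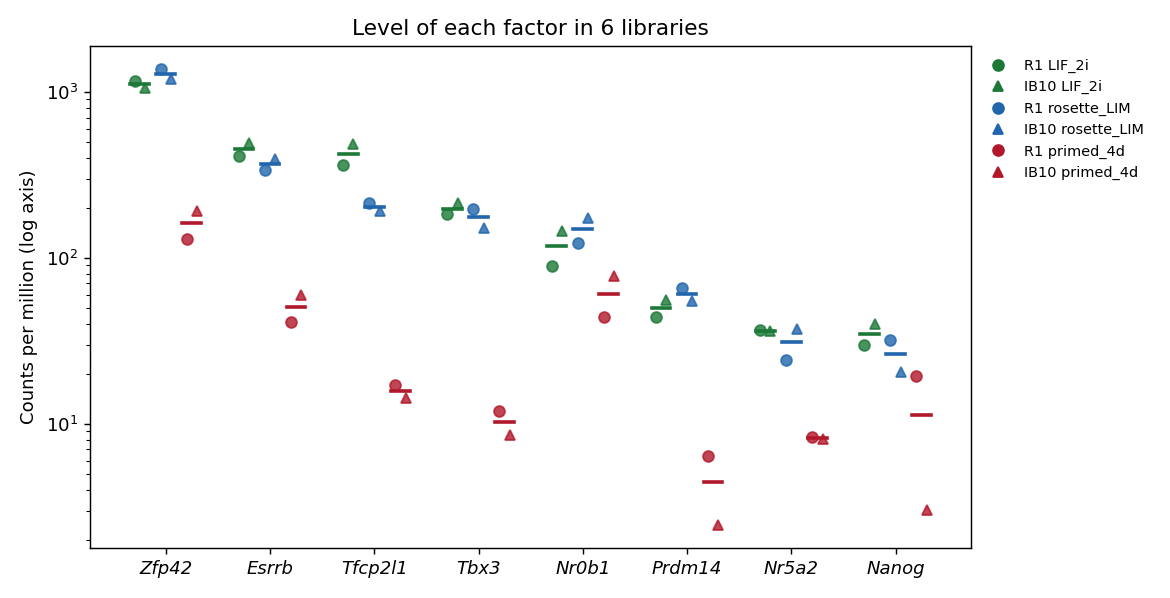
Level of each factor in CPM (log axis) in the 6 libraries, with circles for R1, triangles for IB10 and a bar at the mean of the 2 libraries of a condition. The mean in rosette_LIM is 47.9% of that in LIF_2i for Tfcp2l1 and 75.6% to 126% for the other 7, and every factor is lowest in primed_4d.

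Since 1 transcript gives 1 UMI whatever its length, CPM levels are not scaled by length. In LIF_2i the factors spanned a wide range, from 1113 ± 73.8 CPM for Zfp42 (mean ± SD, n = 2 libraries) to 34.7 ± 7.06 CPM for Nanog. Esrrb and Tfcp2l1 followed Zfp42, and Prdm14, Nr5a2 and Nanog were the 3 lowest. Read against the log2 fold changes of edgeR's quasi-likelihood test, adjusted by Benjamini-Hochberg over 12098 genes with a threshold of 0.05, Tfcp2l1 alone passed the test between rosette_LIM and LIF_2i. All 8 passed it, downward, in primed_4d against either of the other conditions.

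Of the 8, 1 was called between rosette_LIM and LIF_2i, where 5.52% of all genes were called in either direction and 2.34% lower; a count of 1 among 8 says little about the set. The median log2 fold change was −0.22 over the 8 and 0.00 over all genes. All 8 were called lower in primed_4d than in LIF_2i, against 19.6% of all genes, with a median of −2.98. All 8 were also called lower in primed_4d than in rosette_LIM, against 19% of all genes, with a median of −2.94; the median over all genes was −0.01 and 0.00 in these comparisons. The 3 comparisons share libraries, so they are not independent of one another. In summed libraries, fewer cells with a factor and less of its RNA in each cell cannot be told apart; the wells are described further on.

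**Figure D2:**
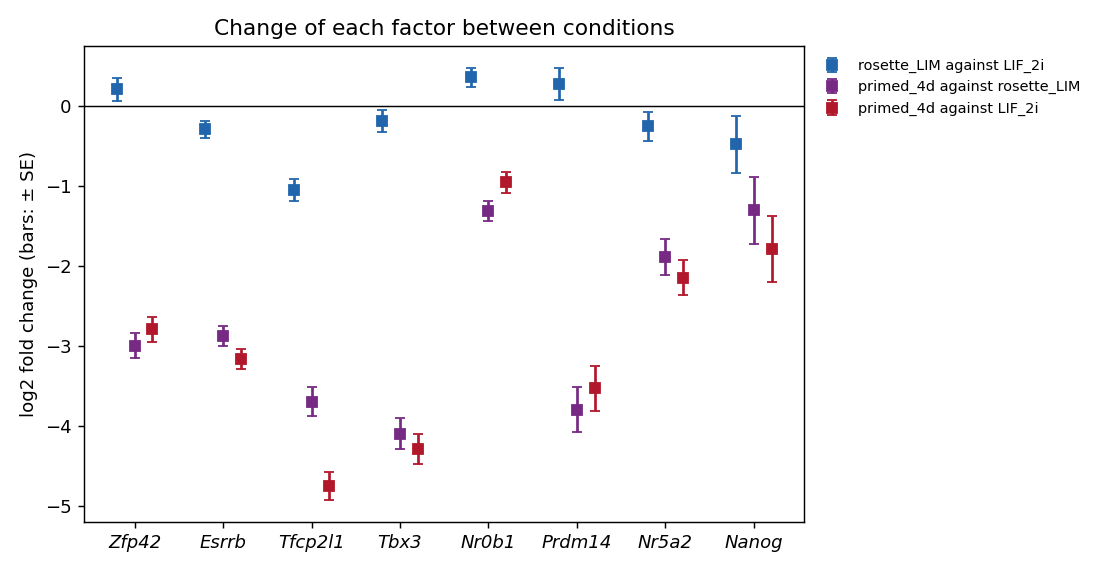
Log2 fold change of each factor in the 3 comparisons of conditions, from edgeR over all 6 libraries with cell line in the model; bars are ± SE. The rosette_LIM points sit between −1.05 and 0.36 and only Tfcp2l1 was called, while both primed_4d comparisons lie below 0 for all 8; scaled by spike-in RNA, Nr0b1, Zfp42 and Prdm14 fall below 0 in rosette_LIM too.

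Tfcp2l1 was the 1 factor called in all 3 comparisons of conditions. It stood at 360 CPM in R1 and 488 in IB10 in LIF_2i, at 214 and 192 in rosette_LIM, but at 17.1 and 14.4 in primed_4d. No libraries of different conditions overlapped, and in both lines rosette_LIM was below LIF_2i and primed_4d was below rosette_LIM. It fell by 1.05 ± 0.14 on the log2 scale from LIF_2i to rosette_LIM (edgeR adjusted p = 0.000392). In primed_4d its log2 fold change against LIF_2i was −4.75 ± 0.18 (edgeR adjusted p = 1.6e-10), the largest fall among the 8. The rosette_LIM call was lost without the IB10 LIF_2i library (log2 fold change −0.74, adjusted p = 0.0664) and when every well was weighted equally (−1.11, adjusted p = 0.328). Within lines the change to rosette_LIM was −0.75 in R1 (95% counting interval −0.85 to −0.65) and −1.34 in IB10 (−1.45 to −1.24). Against rosette_LIM its log2 fold change in primed_4d was −3.70 ± 0.18 (edgeR adjusted p = 2.43e-09).

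Esrrb was at 413 and 490 CPM in R1 and IB10 LIF_2i, 340 and 396 in rosette_LIM, but 41.2 and 60.0 in primed_4d. Rosette_LIM was lower in each line and the 2 conditions did not overlap, but the change was not called (−0.29 ± 0.11, edgeR adjusted p = 0.143). Its log2 fold change in primed_4d against LIF_2i was −3.17 ± 0.13 (edgeR adjusted p = 3.19e-10), and against rosette_LIM −2.87 ± 0.12 (edgeR adjusted p = 1.43e-09). Nr5a2, the other nuclear receptor that binds this kind of site, was at 36.8 and 36.0 CPM in LIF_2i, 24.3 and 37.4 in rosette_LIM, but 8.33 and 8.13 in primed_4d. The rosette_LIM libraries lay on both sides of LIF_2i (−0.26 ± 0.18, edgeR adjusted p = 0.492), and both primed_4d libraries lay far below. The log2 fold change of Nr5a2 in primed_4d was −2.15 ± 0.22 against LIF_2i and −1.89 ± 0.23 against rosette_LIM (edgeR adjusted p = 2.97e-06 and 1.58e-05). Of its 39 UMIs in R1 primed_4d, 33.3% came from 1 well and 79.5% from 10, so this level rests on few cells.

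Nr0b1 had the smallest fitted change of the 8 in primed_4d against LIF_2i, although within R1 that of Nanog was smaller (−0.61 against −1.03). Its levels were 89.5 CPM in R1 and 146 in IB10 in LIF_2i, 123 and 174 in rosette_LIM, but 43.8 and 77.9 in primed_4d. IB10 was above R1 in each condition, and the IB10 primed_4d level lay just below that of R1 LIF_2i. In primed_4d its log2 fold change was −0.96 ± 0.13 against LIF_2i (edgeR adjusted p = 3.8e-05) and −1.31 ± 0.13 against rosette_LIM (edgeR adjusted p = 2.22e-06). The first of these calls was lost when every well was weighted equally (−0.51, adjusted p = 0.0664). Its change to rosette_LIM was 0.36 ± 0.12 and not called (edgeR adjusted p = 0.109), and its sign turned under spike-in scaling (−0.18).

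Tbx3 was at 183 and 213 CPM in R1 and IB10 LIF_2i, 198 and 152 in rosette_LIM, but 12.0 and 8.51 in primed_4d. The LIF_2i and rosette_LIM libraries overlapped (−0.19 ± 0.14, edgeR adjusted p = 0.512), and the primed_4d libraries stood apart from both. The log2 fold change of Tbx3 in primed_4d was −4.29 ± 0.19 against LIF_2i and −4.10 ± 0.19 against rosette_LIM (edgeR adjusted p = 8.67e-10 and 2.16e-09).

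Prdm14 was lower in level, with 44.1 and 55.7 CPM in LIF_2i, 66.2 and 55.2 in rosette_LIM, but 6.40 and 2.46 in primed_4d. The primed_4d values rest on 30 UMIs in R1 and 13 in IB10. The log2 fold change of Prdm14 in primed_4d was −3.53 ± 0.28 against LIF_2i and −3.80 ± 0.28 against rosette_LIM (edgeR adjusted p = 2.53e-07 and 1.5e-07). Zfp42, the most abundant of the 8 in every library, was at 1165 and 1061 CPM in LIF_2i, 1377 and 1190 in rosette_LIM, but 130 and 192 in primed_4d. Both primed_4d libraries were far below the other 4, yet they still exceeded the primed_4d level of each of the other 7 factors. The log2 fold change of Zfp42 in primed_4d was −2.79 ± 0.16 against LIF_2i and −2.998 ± 0.16 against rosette_LIM (edgeR adjusted p = 8.64e-09 and 6.64e-09). The changes of Prdm14 (0.27 ± 0.20, edgeR adjusted p = 0.497) and Zfp42 (0.21 ± 0.14, edgeR adjusted p = 0.473) to rosette_LIM were not called, and both turned negative under spike-in scaling (−0.29 and −0.33).

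Nanog was low in all libraries, and its IB10 against R1 difference in primed_4d (−2.68 on the log2 scale, 95% counting interval −3.55 to −1.91) was the largest of any factor in any condition. Its levels were 29.7 CPM in R1 and 39.7 in IB10 in LIF_2i, 32.0 and 20.5 in rosette_LIM, but 19.4 and 3.03 in primed_4d, from 208, 310, 184, 105, 91 and 16 UMIs in that order. R1 primed_4d lay just below IB10 rosette_LIM, while IB10 primed_4d was far below every other library. The change to rosette_LIM was not called (−0.48 ± 0.36, edgeR adjusted p = 0.512). The fitted change in primed_4d was −1.79 ± 0.41 against LIF_2i (edgeR adjusted p = 0.00317) and −1.31 ± 0.42 against rosette_LIM (edgeR adjusted p = 0.0250), with the widest errors of the 8. Within lines the change from LIF_2i to primed_4d was −0.61 in R1 (95% counting interval −0.98 to −0.25) and −3.71 in IB10 (−4.54 to −2.99). With 1 library per line and condition the difference between lines has no replicate check.

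The Nanog calls also depended on the fit. Without the IB10 primed_4d library the changes were −0.87 against LIF_2i (adjusted p = 0.0225) and −0.46 against rosette_LIM (adjusted p = 0.237), and without the R1 primed_4d library −3.49 and −3.08. Without the IB10 LIF_2i library the change against LIF_2i was −1.004 (adjusted p = 0.0841). DESeq2 called neither change (−2.04, adjusted p = 0.140, and −1.47, adjusted p = 0.338), and without cell line as a block the change against rosette_LIM was not called (−1.26, edgeR adjusted p = 0.0930).

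Between the lines, over the 3 conditions together, 1 of the 8 was called, against 0.752% of all genes. Nr0b1 was 0.67 ± 0.10 higher in IB10 than in R1 on the log2 scale (edgeR adjusted p = 0.00911), and it was higher in all 3 conditions, with differences of 0.70 (LIF_2i), 0.50 (rosette_LIM) and 0.83 (primed_4d). The call was lost in 5 of the 14 alternatives, with log2 differences from 0.44 to 0.86 over the 14. The remaining 7 lay between −0.55 for Nanog and 0.31 for Esrrb, with edgeR adjusted p from 0.178 to 0.937.

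Single wells were compared after each was thinned at random to 6000 UMIs, which left out shallower wells and kept 160 and 184 wells of R1 and IB10 LIF_2i, 179 and 150 of rosette_LIM, and 104 and 169 of primed_4d. Zfp42 was detected in 99.7% ± 0.384 of wells in LIF_2i (mean ± SD, n = 2 libraries), 99.7% ± 0.471 in rosette_LIM and 49.0% ± 2.67 in primed_4d. Esrrb was detected in 93.8% ± 2.67 of LIF_2i wells, 84.7% ± 3.68 of rosette_LIM wells, and 23.1% of R1 and 24.9% of IB10 primed_4d wells. Tfcp2l1 was detected in 88.5% ± 4.02 of LIF_2i wells, 64.6% ± 2.70 of rosette_LIM wells and 8.47% ± 0.262 of primed_4d wells. Its share, like its level, lay between the other 2 conditions in rosette_LIM.

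Tbx3 was detected in 68.6% ± 5.15 of LIF_2i wells, 63.0% ± 4.19 of rosette_LIM wells and 5.73% ± 1.41 of primed_4d wells. Nr0b1 was detected in 45.3% ± 6.63, 49.9% ± 0.198 and 24.6% ± 6.22. Prdm14, Nr5a2 and Nanog averaged under 1 UMI per thinned well in every library. Their shares lay between 14% and 28.7% in LIF_2i and rosette_LIM and between 1.18% and 5.77% in primed_4d, and no change is read from them. Unthinned, Nanog was found in 65.2% ± 13.9 of LIF_2i wells, 46.0% ± 16.2 of rosette_LIM wells and 18.9% ± 15.4 of primed_4d wells, and Zfp42 in 97.1% ± 4.14, 94.4% ± 5.64 and 76.9% ± 8.65. Unthinned shares also depend on depth, which differed between the libraries. The median well held 11250 UMIs in R1 primed_4d and 26868 or more in the others, so no change is read from the unthinned shares either. Of 4 genes that these cells should lack (Alb, Myh6, Ptprc and Cd3e), the thinned shares were between 0% and 2.79%, so Prdm14 in both primed_4d libraries and Nanog in IB10 primed_4d (1.78%) were at the level of background.

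**Figure D3:**
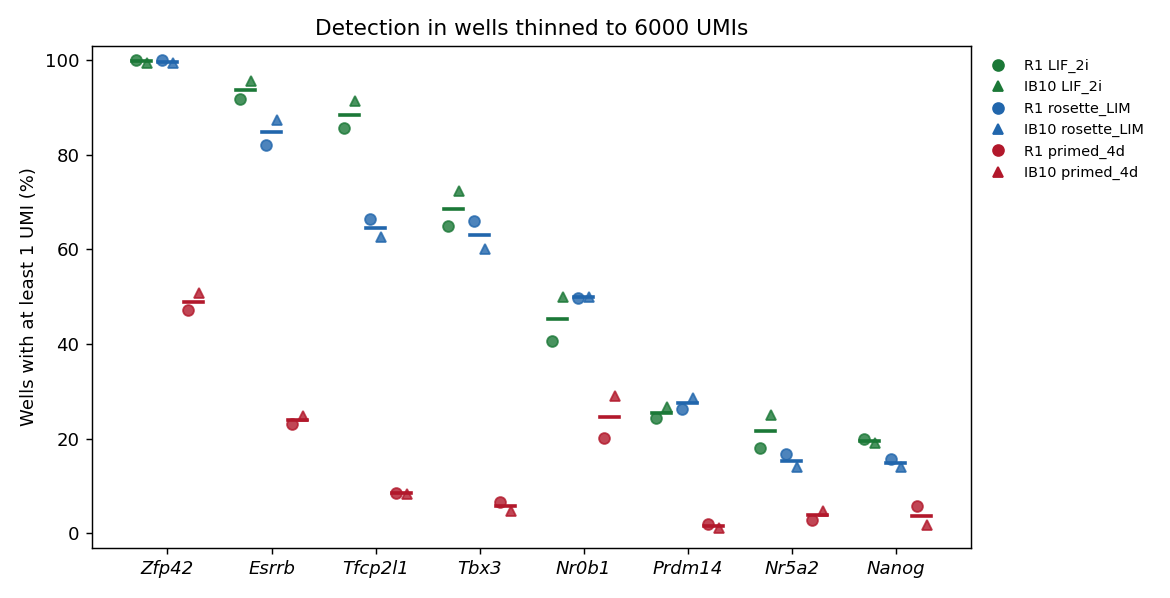
Share of wells with at least 1 UMI of each factor after thinning to 6000 UMIs per well, with circles for R1, triangles for IB10 and bars at the mean of 2 libraries. Zfp42, Esrrb, Tfcp2l1 and Tbx3 are found in 60% or more of LIF_2i and rosette_LIM wells and in 50.9% or fewer of primed_4d wells.

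The number of the 8 factors seen in 1 well summarises co-detection. At 6000 UMIs the median well showed 4 factors in R1 LIF_2i and 5 in IB10 LIF_2i, 4 in both rosette_LIM libraries and 1 in both primed_4d libraries. At least 5 factors were seen in 45.6% and 59.2% of LIF_2i wells and in 40.2% and 40% of rosette_LIM wells. In primed_4d they were seen in 1 of 104 R1 wells (0.962%) and 0 of 169 IB10 wells. For this draw and depth only, the 0 allows a share of up to 1.78%. Another draw gave 2 wells in R1 and 2 in IB10 primed_4d. Thinning to 10000 UMIs gave 3 of 98 and 3 of 146, and thinning to 3000 UMIs 0 of 106 and 0 of 177. Unthinned, 30 and 21 of the 188 wells showed at least 5. Every LIF_2i and R1 rosette_LIM well showed at least 1 factor, and 1 IB10 rosette_LIM well showed none. In primed_4d, 31 of 104 R1 wells and 53 of 169 IB10 wells (29.8% and 31.4%) showed none.

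**Figure D4:**
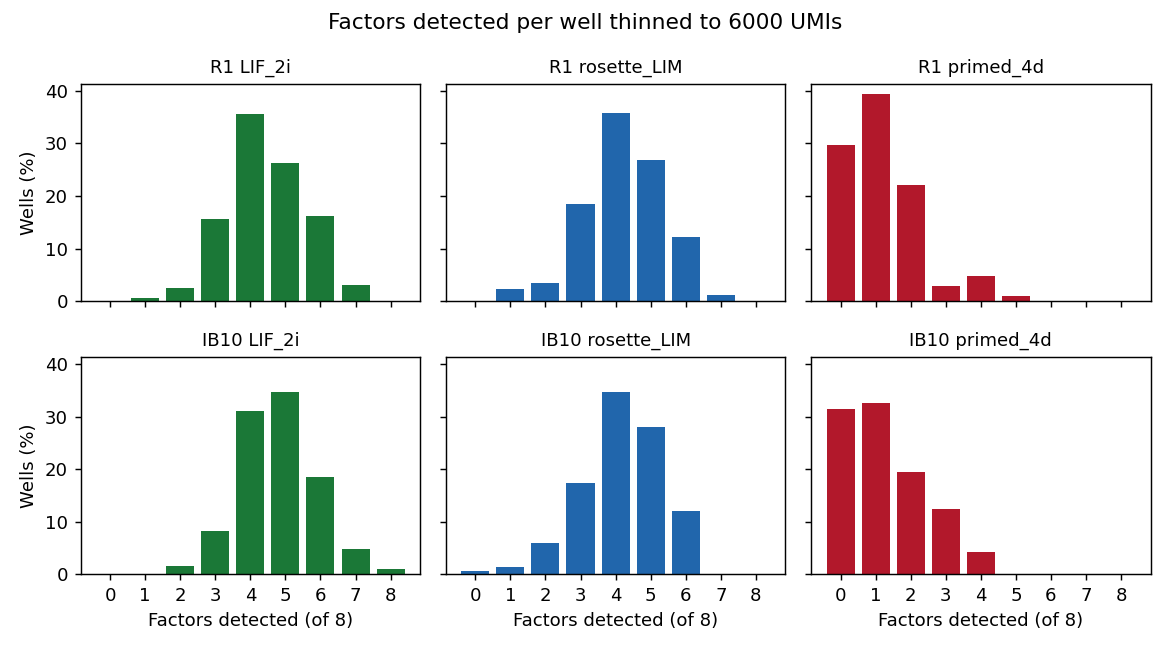
Share of wells (%) by the number of the 8 factors detected at 6000 UMIs per well, 1 panel per library. The LIF_2i and rosette_LIM wells centre on 4 or 5 factors and the primed_4d wells on 0 and 1.

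The 8 factors together made a median of 15 UMIs per thinned well in both LIF_2i libraries, 13 and 12 in R1 and IB10 rosette_LIM, and 1 in both primed_4d libraries. A small number of primed_4d wells reached the range of LIF_2i. Above the 5th percentile of their own line's LIF_2i wells lay 164 of 179 R1 and 132 of 150 IB10 rosette_LIM wells, but 2 of 104 R1 primed_4d wells (1.92%) and 15 of 169 IB10 primed_4d wells (8.88%). Another random draw gave 1 and 9 primed_4d wells, thinning to 3000 UMIs 12 of 106 and 16 of 177, and thinning to 10000 UMIs 2 of 98 and 7 of 146. In primed_4d the number of factors detected and the log2 depth of the well before thinning had a Pearson r across wells of −0.306 in R1 and −0.172 in IB10, and r lay between −0.159 and 0.145 in the other 4 libraries. The part of depth in the high wells was not tested.

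How unevenly a factor's UMIs fell over the wells of a library was described by the Fano factor, the variance divided by the mean, which is 1 for random sampling of equal cells. At 6000 UMIs it was between 0.848 and 1.82 over the 8 factors in LIF_2i and rosette_LIM. In IB10 primed_4d it reached 4.28 for Zfp42 and 3.02 for Nr0b1, and in R1 primed_4d 2.03 and 1.66, where the median over the 8 factors was also 1.66. The highest value over the 8 in IB10 primed_4d was 3.73 in another draw, 2 at 3000 UMIs and 5.39 at 10000 UMIs. Zfp42 was found in 50.9% of IB10 primed_4d wells (95% exact interval 43.1% to 58.6%), where equal cells of the same mean would give 76.0%. Of the 1016 UMIs of Zfp42 in that library, 34.8% came from 10 wells.

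**Figure D5:**
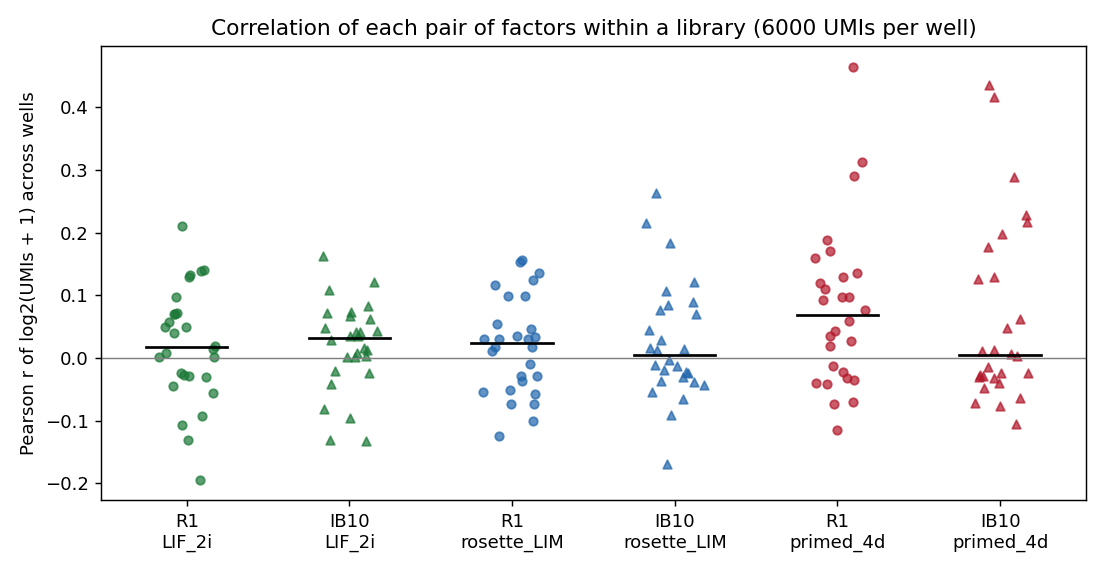
Pearson r of log2(UMIs + 1) across wells for the 28 pairs of factors within each library, at 6000 UMIs per well; black bars are medians. Most pairs lie near 0 in LIF_2i and rosette_LIM, and a few pairs reach above 0.4 in primed_4d.

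Within LIF_2i and rosette_LIM, the share of wells with both factors of a pair was divided by the product of their shares. Over the 28 pairs this ratio had medians between 1 and 1.01 in the 4 libraries and ran from 0.639 to 1.29. The median r across wells was between 0.00414 and 0.0317. Zfp42 was in nearly all of these wells, so the ratio of its pairs was bound to be at or near 1. Pairs of Esrrb, also found in most wells, had less room to differ from 1, so the median ratio is no test of co-detection. The median ratio and median r were 0.924 and 0.0045 in IB10 primed_4d and 1.41 and 0.0682 in R1 primed_4d. Many IB10 primed_4d pairs had a ratio of 0 where the product gives fewer than 1 well, such as Nanog and Nr0b1 (0.87). The primed_4d medians are therefore no measure of a general rise or of its absence. In IB10 primed_4d 14 of the 28 pairs had a ratio above 1, and Esrrb and Tfcp2l1 lay below it (1 well against 3.48). The pairs of highest r are given next. In IB10 primed_4d, Nr0b1 and Zfp42 were found together in 36 wells where the product of their shares gives 24.9 (r = 0.436). Esrrb and Zfp42 were found together in 34 wells where the product gives 21.4 (r = 0.417). In R1 primed_4d Nr0b1 and Zfp42 shared 14 wells against 9.89 (r = 0.313), and the highest r, 0.465 for Nr5a2 and Zfp42, rests on 3 wells. The pairs share wells and depth, and most members are sparse at this depth, so these values describe the libraries and carry no test.

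Other genes of the network were counted from lists of known partners and inputs, in which Klf4, Stat3 and Lef1 each stand in 2 lists. Of all genes tested, 3.18% were called higher and 2.34% lower in rosette_LIM against LIF_2i, and 18.3% higher and 19.6% lower in primed_4d against LIF_2i. Of 16 core factors, partners and other naive genes, 1 rose and none fell in rosette_LIM against LIF_2i by edgeR, and 2 fell at an unadjusted p under 0.05. Without the filter on low counts 2 rose and 2 fell, and under spike-in scaling 0 rose and 1 fell. In primed_4d against LIF_2i 3 rose and 8 fell, with a median log2 fold change of −0.36. Over the alternatives of that comparison 1 to 3 rose and 4 to 9 fell. With the filter, the gene that rose in rosette_LIM was Mycn, a MYC family factor, from 89.1 and 124 CPM to 168 and 183 (0.73 ± 0.12, edgeR adjusted p = 0.00234). It was not called without R1 LIF_2i (0.57) or with wells weighted equally (0.65). Mycn (1.09) and Myc (1.49) rose in primed_4d against LIF_2i, and Klf4, the KLF factor downstream of STAT3, fell (−3.76), as did Tcl1, a coactivator of AKT (−2.49).

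Of 11 genes of LIF and STAT3 input, none was called in rosette_LIM by edgeR, DESeq2 or limma. In edgeR 4 were higher and 2 lower at an unadjusted p under 0.05, and without the filter on low counts 2 were called lower. Some fits with 1 library left out also gave calls. In primed_4d against LIF_2i 2 rose and 8 fell, though LIF was present in all conditions. The median was −0.64, and over the alternatives 4 to 8 fell. Klf4 and Bcl3 (−1.98) had the smallest adjusted p among those that fell, and Junb (1.46) and Gbx2 (0.79) were the 2 called higher. Gbx2 was at 21.7 CPM in R1 and 20.2 in IB10 in LIF_2i and at 18.8 and 60.0 in primed_4d, so its call rested on IB10 primed_4d, without which the change was −0.075. Of 14 genes of GSK3, beta-catenin and TCF input, 1 rose and 4 fell in rosette_LIM. The WNT targets Sp5 (from 35.8 and 22.4 CPM to 1.91 and 1.75) and Cdx1 (from 67.7 and 33.5 to 4.34 and 4.87) fell, with log2 fold changes of −3.96 ± 0.32 and −3.41 ± 0.28, and the 1 called higher was Lgr4, an R-spondin receptor (0.67). That call was lost in 8 of 15 alternatives, among them no block, DESeq2, limma, and leaving out R1 LIF_2i, IB10 LIF_2i or IB10 rosette_LIM (0.68, 0.66, 0.56, 0.79, 0.53 and 0.497). In primed_4d against LIF_2i 2 of the 14 rose, Lgr4 (2.06) and Lef1 (4.14), and 7 fell; over the alternatives 4 to 7 fell. Against rosette_LIM the repressor Tcf7l1 (−0.92) and Tcf7l2 (−1.10) fell, calls lost with wells weighted equally (−0.70 and −0.66).

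Of 17 paralogs of the 8 factors, 11 had enough counts to be tested. Among those called in primed_4d against LIF_2i, Yy2, a paralog of Zfp42, was higher (0.59) and Tbx2 lower. The call of Yy2 was lost in 8 of 15 alternatives, leaving out either LIF_2i or either primed_4d library among them (0.42 to 0.75), and that of Tbx2 with DESeq2 and without IB10 primed_4d. Tbx2 was below 2 CPM throughout, at 1.57, 1.92, 1.91 and 0.975 CPM in the LIF_2i and rosette_LIM libraries and at 0.213 and 0 in primed_4d. Prdm1 was lower in primed_4d against rosette_LIM (−0.86, edgeR adjusted p = 0.0360), a call lost in 7 of 15 alternatives, among them no block and leaving out either LIF_2i library, R1 primed_4d or R1 rosette_LIM (−0.84, −0.86, −0.88, −0.47 and −0.63). The median over the 11 was −0.13 in primed_4d against LIF_2i, where that of the 8 factors was −2.98.

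A list of 16 genes was drawn up as ones that PRDM14 or the other naive factors hold down. Held down is only the name of the list here, and repression by the factors was not tested. Not all were low in LIF_2i, where Etv5 was at 366 and 329 CPM and Uhrf1 at 317 and 365 in R1 and IB10. In primed_4d against LIF_2i 11 of the 16 rose and 3 fell, with a median of 2.49, and 10 or 11 rose in each of the alternatives. Pou3f1 (OCT6) rose by 5.99 ± 0.19, from 5.14 and 3.07 CPM to 249 and 269, and the de novo DNA methyltransferase Dnmt3b by 3.36 ± 0.16, from 75.8 and 89.6 to 860 and 821. Uhrf1, a cofactor of DNA methylation maintenance, and the FGF/ERK target Etv5 fell (−0.87 and −0.67). In rosette_LIM, where 7 of the 8 factors were not called, 4 of the 16 rose and 3 fell. Fgfr2, an FGF receptor, rose by 3.47 ± 0.35 and Otx2 by 2.37 ± 0.30 (edgeR adjusted p = 3.5e-05 and 0.00027), while Etv4 (−1.53) and Dnmt3b (−0.92) fell. The call of Dnmt3b was lost in 3 of 15 alternatives, among them leaving out R1 or IB10 LIF_2i (−0.90 and −0.95). Across thinned wells, the summed UMIs of the 8 factors and of these 16 genes had r of −0.219 in R1 and −0.328 in IB10 primed_4d and between −0.134 and 0.137 in the other 4 libraries. In R1 and IB10 primed_4d the number of factors detected also had r of −0.306 and −0.172 with log2 depth before thinning. The median well there held 1 UMI of the 8, and what lies behind these r was not tested.

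The 6 germ cell markers, of a state in which Prdm14 also acts, summed to between 148 and 229 CPM in LIF_2i and rosette_LIM and to 58.7 and 66.6 CPM in primed_4d, with none at 0. In primed_4d against LIF_2i 3 of the 6 fell and 1 rose, and the other 2 were not called, with Tfap2c at −1.90, Dazl at −2.54 and Ddx4 at 1.85. Their part in the levels of the 8 factors was not tested. Of the 6 general pluripotency markers, 3 rose and 2 fell in the same comparison, with Utf1 at 1.68, Lin28a at 2.17, Sox2 at −0.53 and Sall4 at −0.38.

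In primed_4d against rosette_LIM 4 rose and 9 fell of the core list, 2 and 8 of the LIF list, 3 and 5 of the GSK3 list, 1 and 2 of the paralogs, and 10 and 3 of the genes held down, where 17.1% of all genes were called higher and 19% lower. The 4 of the core list that rose became 1 with DESeq2, without the block, under spike-in scaling, and without R1 LIF_2i, IB10 LIF_2i or R1 primed_4d; 10 of the genes held down rose in every alternative. Both comparisons share the primed_4d libraries. Under spike-in scaling no gene named from the lists changed direction, but the rises of Mycn and Lgr4 in rosette_LIM were no longer called (0.20 and 0.11), nor were those of Mycn, Gbx2 and Yy2 in primed_4d against LIF_2i (0.54, 0.24 and 0.039). In primed_4d against rosette_LIM that scaling left 1 higher and 5 lower of the core list, 1 and 4 of the LIF list, 2 and 3 of the GSK3 list, 0 and 1 of the paralogs, and 10 and 0 of the genes held down.

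The genes with patterns most like each factor were sought by the distance between centred log2(CPM + 1) values over the 6 libraries, among 8162 genes with a mean of at least 10 CPM. For Zfp42 they were 9030617O03Rik (distance 0.234), Spp1 (0.305), which encodes osteopontin, and Stk30 (0.399). For Esrrb they were Cobl (0.318), Ppp2r2c (0.325) and Nfatc2ip (0.423), and for Nr5a2 the glucose transporter gene Slc2a3 (0.282), Hebp1 (0.319) and Tex264 (0.405). For Nr0b1 they were Cth (0.317), an enzyme of cysteine synthesis, Zfp229 (0.353) and Inpp5k (0.380), and for Prdm14 St8sia1 (0.410), the basement membrane gene Nid1 (0.488) and the aquaporin gene Aqp3 (0.631).

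Nearest to Tbx3 were Bhmt (0.669), Mras (0.785) and Nid1 (0.823). Tfcp2l1 had Gsta3 (0.734), Tbx3 (0.903) and Klf4 (1.10), so 1 of its 3 nearest genes is itself one of the 8. Nanog was the least matched, with Gpc4 (1.07), Lrrc34 (1.13) and Parvb (1.24). Among the 8, the closest pair was Esrrb and Zfp42 (0.654) and the farthest Tfcp2l1 and Nr0b1 (3.84). These distances rest on 6 libraries and are descriptions.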

How the data were processed

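Transcripts of sorted single cells were measured with SORT-seq in 6 libraries. The deposited table holds expected counts per gene and well, made by the authors from UMIs; BWA and mm10/GRCm38 are named per the submitters' processing notes, without versions. To 2 decimals, the values of the gene rows all correspond to whole UMI counts corrected for collisions among 4096 possible UMIs. Gene and ERCC spike-in rows together held 1297 distinct values, and the match was not checked for the ERCC rows. No doublet caller was run. Wells are named by plate position (the 188 positions recur in all libraries), so shared cell barcodes could not be counted.

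Values were summed over wells, rounded, and tested two-sided with edgeR 4.0.16 (R 4.3.3; TMM, filterByExpr with a minimum count of 10; condition and cell line over 6 libraries). Replicate numbers stand for the cell line, which was therefore a block; differences between IB10 and R1 had r across genes of 0.152, 0.205 and 0.0903 between conditions. ERCC rows (91) stayed out of sizes and tests, and took 1.34% to 2.47% of a library. Counting intervals are exact, at 95%, and cover counting error only. Steps were tested on simulated data. Alternatives were DESeq2 1.42.0, limma 3.58.1 on log2(CPM + 5), no filter, no rescaling, deeper wells, equal wells, no block, and each library left out. For limma the CPM were taken without the TMM factor. Spike-in scaling and leaving out 2 R1 LIF_2i wells above 300000 UMIs were added after seeing the data.

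Named were the 8 factors, for each the 3 genes of nearest pattern, and per list the 2 called genes of smallest adjusted p in each direction; 1 paralog is not reported here. The members and lists were chosen with earlier results of these data known.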

Additional observations from a re-analysis of the deposited data

Results flagged for a closer look

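From LIF_2i to rosette_LIM the log2 change had opposite signs in the 2 lines for 4 of the 8 factors, and in each of the 4 the 95% counting interval of 1 line included 0; with 1 library per line and condition the difference was not tested. The log2 change of Nanog was 0.11 (−0.19 to 0.40) in R1 and −0.95 in IB10. That of Tbx3 was 0.12 (−0.00083 to 0.23) in R1 and −0.49 in IB10. For Nr5a2 it was −0.60 in R1 and 0.058 (−0.21 to 0.33) in IB10, and for Prdm14 0.59 in R1 and −0.013 (−0.23 to 0.21) in IB10. None of the 4 was called in the fit over both lines.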

How the results depend on the processing

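All 8 factors stayed lower in primed_4d than in LIF_2i and in rosette_LIM under the 15 alternatives; the calls lost there were 5 of Nanog and 1 of Nr0b1, given with the results, so 7 to 8 factors were called with 1 library left out. Without the replicate block (cell line), 281 genes were called in rosette_LIM against LIF_2i in place of 668; beyond the Nanog call given with the results, the block changed no call of the 8. Where 1 library is left out, the lone library of that condition is assumed to vary like the others. With DESeq2 the count was 272, with limma 424, without the filter 1049, with wells weighted equally 50, and with 1 library left out 64 to 997. In primed_4d against LIF_2i (4580) the counts were 2668 with DESeq2, 2075 with equal wells and 2319 to 5454 with 1 library left out. In primed_4d against rosette_LIM (4369) they were 2604, 1986 and 3060 to 3900, and 2037 with spike-in scaling. Between the lines (91) they were 47 with DESeq2, 16 with limma, 328 without the filter, 22 with spike-in scaling, 0 by limma with equal wells (801 at an unadjusted p under 0.05) and 0 to 379 with 1 library left out.

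Of the 8 factors, 1 was called in rosette_LIM against LIF_2i; 0 were with equal wells, 2 with spike-in scaling (Nanog too, −1.06) and 0 to 2 with 1 library left out. Between the lines 1 was called; 0 were with limma, equal wells or spike-in scaling, 2 without the filter (Nanog too, −0.55) and 0 to 1 with 1 library left out. Spike-in scaling moved the median log2 fold change of all genes to −0.55 in rosette_LIM and −0.56 in primed_4d against LIF_2i, and the split in rosette_LIM from 385 higher and 283 lower to 42 and 519; in primed_4d against LIF_2i it moved from 2211 and 2369 to 672 and 3479. Leaving out the 2 very deep R1 LIF_2i wells changed no call of the 8.

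Signs turned only for changes that were not called. In rosette_LIM against LIF_2i these were Nr0b1 (−0.18), Zfp42 (−0.33) and Prdm14 (−0.29) with spike-in scaling. With 1 library left out, the change of Nanog ranged from −1.32 to 0.44, of Tbx3 from −0.51 to 0.13, of Nr5a2 from −0.61 to 0.056, of Zfp42 from −0.0027 to 0.38 (called without IB10 rosette_LIM, adjusted p = 0.0439) and of Prdm14 from −0.14 to 0.70. Between the lines they were Esrrb (−0.016), Tfcp2l1 (−0.36), Nr5a2 (−0.077) and Zfp42 (−0.13) with equal wells. With 1 library left out, the line difference of Tfcp2l1 ranged from −0.18 to 0.27, of Tbx3 from −0.41 to 0.075, of Nr5a2 from −0.034 to 0.39, of Zfp42 from −0.17 to 0.19 and of Prdm14 from −0.50 to 0.053. The cause was not tested.

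Depth limits the counts per well. The median number of factors detected, averaged over 2 libraries, moved from 4.5 to 3.5 at 3000 UMIs and 5.5 at 10000 in LIF_2i, from 4 to 3 and 5 in rosette_LIM, and from 1 to 0.5 and 1.75 in primed_4d. The median summed UMIs per 6000 moved from 15 to 14 and 14.7 in LIF_2i and from 1 to 1.2 (at 10000) in primed_4d, and to 13.5 with another draw in rosette_LIM (12.5).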
